A study of Sus scrofa with 9 samples.

Results

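Intermediate filaments are the rope-like part of the cytoskeleton that gives a cell its mechanical strength, and the nuclear lamins are the members of the same protein family that line the inside of the nuclear envelope. Vimentin is the usual filament protein of fibroblasts, desmin that of muscle cells, and keratins 8 and 18 pair with each other in simple epithelia. Nestin and synemin do not form filaments alone and join those of vimentin or desmin. A-type lamins (from LMNA) are abundant in stiff and contractile tissues, whereas lamin B1 is known to be low in senescent cells, which have stopped dividing for good.

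The 9 listed genes of the family, DES, VIM, NES, SYNM, KRT8, KRT18, LMNA, LMNB1 and LMNB2, were looked up by symbol among 30477 gene IDs. Of these 8 were matched, SYNM was not and is not analysed here, and 7 of the 8 passed the filter on low values that left 11063 genes for testing. KRT18 did not pass it. The members were chosen by family and, for DES, by measured FPKM: it was picked because it was abundant for fibroblasts and lower after 0 h. Its levels and its comparisons with 0 h are therefore given as a description with no test.

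The cells were porcine embryonic fibroblasts (PEF), connective tissue cells of pig embryos that were thawed and grown in culture. The untreated control was taken at 0 h and insulin-treated cells at 48 h and 72 h after insulin was added, with 3 libraries at each time that the submitters describe as biological replicates. The sources used here do not give the strain, embryo age, insulin dose or medium, and no untreated culture of 48 h or 72 h was analysed here, so insulin and time in culture cannot be told apart. Nor do the labels say whether the replicates came from separate cultures or animals, so p-values measure the spread between these libraries, which may be technical.

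Levels are in FPKM, fragments per kilobase of gene and per a fixed number of mapped fragments, so that genes can be compared per length. The libraries' FPKM sums lay between 487860 and 563660, and 10761 to 10833 genes per library reached an FPKM of 1. Of the markers of fibroblasts 7 of 8 were matched, and all 7 were expressed, with COL1A1, a chain of type I collagen, at 8407 ± 287 FPKM at 0 h (mean ± SD, n = 3 here and below). The summed level of these 7 genes was 15099 to 15852 FPKM at 0 h, 12163 to 13331 at 48 h and 14309 to 14908 at 72 h. These sums were carried by the collagens COL1A1, COL1A2 and COL3A1. At 48 h 3 of the 7 rose and 4 fell, and the 3 that rose, PDGFRA, LUM and DCN, were higher than at 0 h at 72 h too. PDGFRA, a growth factor receptor of fibroblasts, was at 9.34 ± 0.150 FPKM at 0 h, 26.9 ± 2.85 at 48 h and 36.4 ± 8.17 at 72 h. LUM, the gene of the matrix proteoglycan lumican, was at 12.7 ± 0.486, 33.8 ± 0.641 and 48.3 ± 4.43 FPKM. Changes are differences in log2(FPKM + 1) with their standard errors from limma, and genes were called where the p adjusted by Benjamini and Hochberg over all tested genes was below 0.05.

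At 0 h the order of the levels was VIM, DES, LMNA, NES, LMNB1, LMNB2, KRT8 and KRT18, and no pair of neighbours in this order overlapped between libraries. VIM stood at 4666 ± 79.0 FPKM, which ranked it 12th to 13th of all genes in the 3 libraries, and DES ranked 41st to 48th. At 48 h LMNA and DES could not be ordered, since their libraries overlapped at means of 912 and 889 FPKM, and KRT8 had moved above LMNB2. At 72 h DES again stood above LMNA, at 1.40 times its level, and KRT8 above LMNB2 at 1.16 times.

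**Figure D1:**
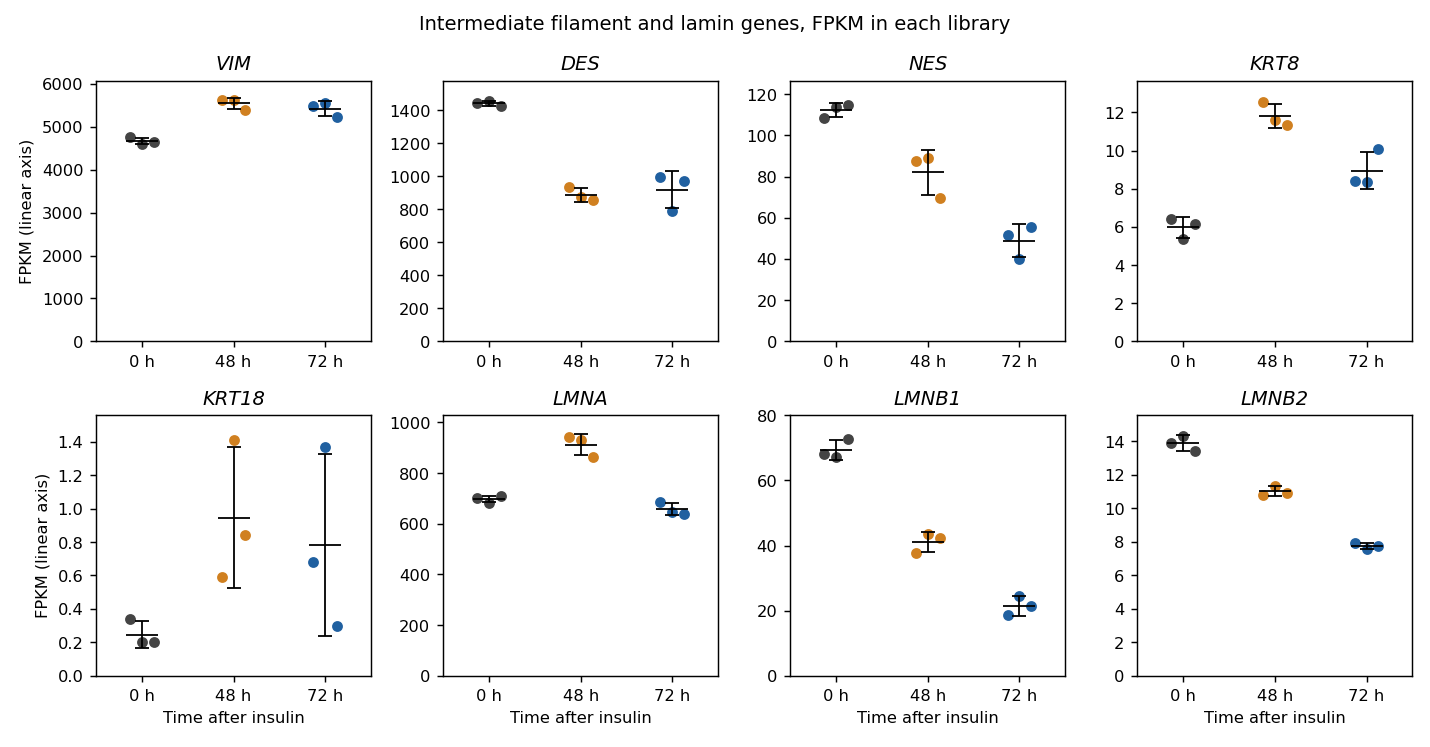
FPKM (linear axis from 0) of the 8 matched genes in each of the 9 libraries by time after insulin, with points for libraries, horizontal bars for means and error bars for the SD (n = 3). LMNB1, LMNB2 and NES step down from 0 h to 48 h and again to 72 h, DES steps down once, LMNA is highest at 48 h, and KRT18 stays below 1.5 FPKM.

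Desmin joins the contractile apparatus of muscle cells to their membrane and nucleus. DES (ENSSSCG00000020785, chromosome 15, 121428539 to 121435426 in Sscrofa11.1) was at 1445, 1453 and 1422 FPKM in replicates 1, 2 and 3 at 0 h. It was at 937, 872 and 858 FPKM at 48 h and at 993, 789.8 and 973 FPKM at 72 h. Every library of 48 h and 72 h was below every library of 0 h, and the later times overlapped. The log2 difference from 0 h was -0.70 ± 0.08 at 48 h and -0.66 ± 0.08 at 72 h, which is 0.617 and 0.638 times the 0 h level. Its size depended on the scaling. The 48 h difference was -0.83 at equal FPKM sums, -0.81 after rescaling to protein-coding genes and -0.98 under quantile normalization. The 72 h difference was -0.71, -0.69 and -0.84 in the same settings. Between 72 h and 48 h, a comparison that did not enter the choice of the gene, the difference was 0.04 ± 0.08 (limma adjusted p = 0.742). It was below 0 without 72 h replicate 1 (-0.02) or replicate 3 (-0.0041), and -0.55 in place of -0.66 was the 72 h change from 0 h without 72 h replicate 2, the lowest library of that time.

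In bulk RNA, fewer cells of a type and less RNA per cell cannot be told apart, so other muscle genes are given beside DES. All 9 smooth muscle markers were tested, and their summed level was 11586 to 12173 FPKM at 0 h, 8615 to 10153 at 48 h and 8896 to 9471 at 72 h. At 48 h 6 of the 9 fell and 1 rose, with a median log2 change of -0.27, and at 72 h 7 fell and 1 rose, with a median of -0.39. Of all tested genes 22.4% fell and 27.6% rose at 48 h, 22.5% fell and 23.0% rose at 72 h, and their medians were 0.02 and -0.01. At equal FPKM sums the calls at 48 h split into 1960 higher and 3680 lower, against 3048 and 2476 as deposited.

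ACTA2, the smooth muscle actin that fibroblasts make when they become contractile, was the most abundant of the markers, at 5040 ± 89.9 FPKM at 0 h and 4194 ± 420 at 48 h (-0.27 ± 0.08, adjusted p = 0.0141, but 0.0621 without 48 h replicate 2). ACTG2, the enteric smooth muscle actin, fell from 2783 ± 113 to 1641 ± 198 FPKM at 48 h (-0.77 ± 0.08, adjusted p = 5.18e-05) and was at 1903 ± 97.9 at 72 h. MYH11, the smooth muscle myosin heavy chain, was low throughout, at 3.30 ± 0.272 FPKM at 0 h and 1.84 ± 0.248 at 72 h (-0.60, adjusted p = 4.45e-04). MYLK, the kinase of the myosin light chain, was the one that rose, by 0.33 at 48 h, and this call was lost at equal FPKM sums (adjusted p = 0.0920), after rescaling to protein-coding genes (0.0580) and under quantile normalization (0.119). At 72 h it rose by 0.29, which was lost under quantile normalization (adjusted p = 0.0926).

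Markers of mural cells, the contractile cells around small vessels, were tested for 4 of 8 genes, with sums of 283 to 292 FPKM at 0 h, 206 to 213 at 48 h and 243 to 258 at 72 h. NOTCH3, a receptor that maintains these cells, fell by 1.34 ± 0.07 at 48 h, MCAM, an adhesion molecule, fell by 1.29 ± 0.12 at 72 h, while PDGFRB, their growth factor receptor, rose by 0.32 ± 0.06 at 72 h. The other 4 genes of the list, RGS5, KCNJ8, ABCC9 and HIGD1B, had means below 1 FPKM at each time.

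Skeletal muscle markers were near the floor. Of 19 genes 14 were matched, 10 of them had means below 1 FPKM at each time, and the sum of the 14 was 16.3 to 17.4 FPKM at 0 h, 13.5 to 16.0 at 48 h and 10.2 to 14.1 at 72 h. CKM, the muscle creatine kinase, was at 0.0167 FPKM at 0 h. Among the 4 tested, ACTA1, the skeletal actin, fell from 3.96 ± 0.174 to 1.03 ± 0.108 FPKM at 48 h (-1.29 ± 0.14, adjusted p = 4.18e-05), and MYL1, a myosin light chain, was at 3.80 ± 0.270 and 5.24 ± 1.60 FPKM (0.35, adjusted p = 0.131). Of the cardiac markers only ACTC1, the cardiac actin, was tested, and it fell from 21.6 ± 0.547 at 0 h to 14.1 ± 2.08 FPKM at 72 h (-0.59 ± 0.09, adjusted p = 3.05e-04). Of the markers of endothelial and immune cells, CDH5 and PTPRC, which define these cells, were listed at 0 in all libraries. The summed endothelial markers, 5 matched of 6, were at 6.40 to 6.67, 2.30 to 2.54 and 2.02 to 3.19 FPKM at 0 h, 48 h and 72 h, and 5 immune markers were at 22.4 to 24.0, 22.0 to 23.3 and 22.7 to 24.1. Most of the endothelial sum at 0 h was CLDN5, a tight junction protein, which fell from 5.747 ± 0.310 to 1.500 ± 0.050 FPKM at 48 h (-1.43 ± 0.15, adjusted p = 3.38e-05) and was at 1.49 ± 0.593 at 72 h. Most of the immune sum was LYZ, the gene of lysozyme, at 22.8 ± 0.827, 22.2 ± 0.595 and 23.1 ± 0.609 FPKM, which was not called in any comparison. The part of these cell types in the DES values was not tested.

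**Figure D2:**
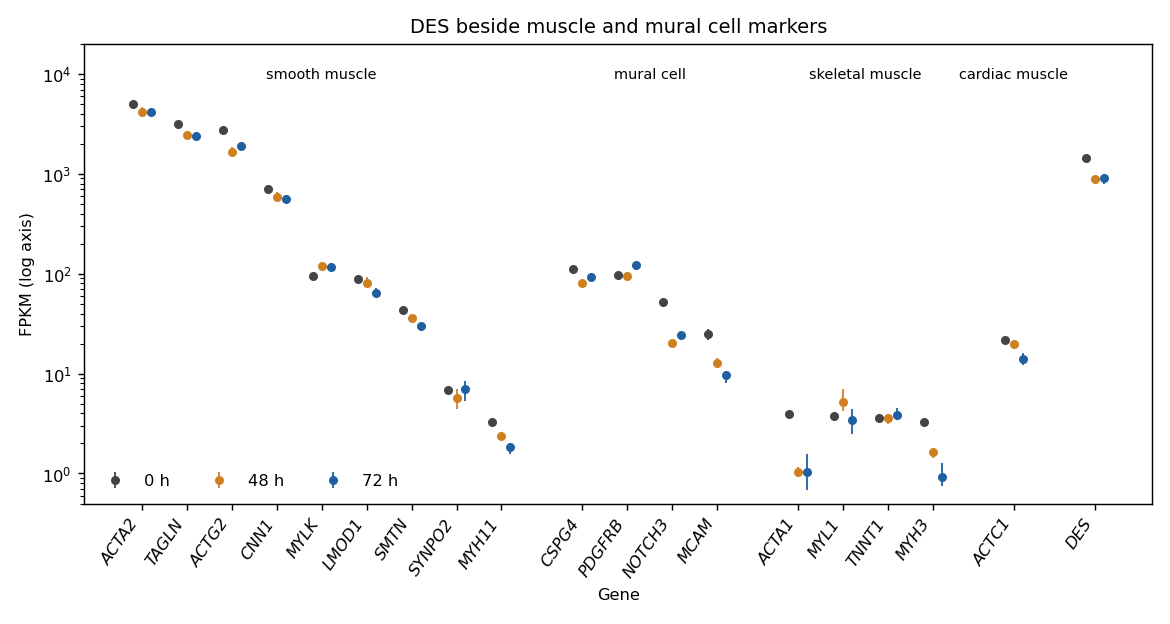
FPKM (log axis) of DES and of the tested smooth muscle, mural cell, skeletal and cardiac muscle markers at 0 h, 48 h and 72 h, with points for means and bars from the lowest to the highest of 3 libraries. DES lies between ACTG2 and CNN1 of the smooth muscle list, while the tested skeletal muscle markers lie at 5.24 FPKM or below.

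Transcription factors that switch on muscle genes were a mixed group. Of 13 genes 8 were tested, with 2 rising and 1 falling at 48 h and 2 rising and 4 falling at 72 h. Among all tested genes 27.6% rose and 22.4% fell at 48 h, and 23.0% rose and 22.5% fell at 72 h. At equal FPKM sums the list had 4 falls and 1 rise at 48 h. At 72 h MEF2C, MYOCD, MRTFA (-0.35) and SRF (-0.33) fell, while MYOG (0.57) and MEF2D (0.21) rose. The 48 h falls were 0 without 0 h replicate 3 or 48 h replicate 1 and 2 without 48 h replicate 3, and the 72 h rises were 1 without 0 h replicate 1 or 3 or 72 h replicate 2. MEF2C, which acts with myogenic factors, fell from 6.77 ± 0.383 to 3.91 ± 0.412 FPKM at 72 h (-0.66 ± 0.09, adjusted p = 1.33e-04). MYOCD, a coactivator of serum response factor in smooth muscle, fell from 2.13 ± 0.336 to 1.13 ± 0.0950 FPKM at 72 h (-0.55, adjusted p = 0.00258). MYOG, a factor of skeletal muscle differentiation, rose at 48 h from 0.453 ± 0.146 to 1.28 ± 0.138 FPKM (0.66 ± 0.10, adjusted p = 4.67e-04), a level close to the filter of 1 FPKM. MYOD1 and PAX7, which mark muscle precursors, had means below 0.2 FPKM at each time.

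Proteins that fold desmin, hold it in place or break it down went in both directions. Of 16 such genes 10 were tested, with 2 rising and 3 falling at 48 h and 1 rising and 3 falling at 72 h. These counts were near the shares of all tested genes. Those were 27.6% rising and 22.4% falling at 48 h, and 23.0% rising and 22.5% falling at 72 h. The rises of the list at 48 h were CAPN1 and HSPB1 (0.28, adjusted p = 0.0239), and that at 72 h was CAPN1. HSPB1 was not called at 72 h (-0.16, adjusted p = 0.170). The count of 48 h rises was 1 at equal FPKM sums, after rescaling to protein-coding genes, under quantile normalization and with no filter. It was also 1 without 0 h replicate 2 or 3 or 48 h replicate 1 or 2. With no filter the count of 48 h falls was 1. CRYAB, the small heat shock protein that keeps desmin from clumping, fell from 178.5 ± 11.2 to 121 ± 29.7 FPKM at 48 h (-0.59 ± 0.17, adjusted p = 0.0144, but 0.0583 without 48 h replicate 2) and was at 117 ± 21.9 FPKM at 72 h (-0.63 ± 0.17, adjusted p = 0.0108). CAPN1, a calcium-dependent protease that can cut desmin, rose from 47.1 ± 1.37 to 72.3 ± 4.09 FPKM at 48 h (0.61 ± 0.06, adjusted p = 1.79e-05).

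Profiles were compared by the root mean square difference of centred log2(FPKM + 1) values over the 9 libraries, which understates changes of low genes. The 5 of 9868 genes with a symbol whose profile was nearest to that of DES were CLEC14A, BAZ1B, RHOU, ZBED2 and AGTR1. Their differences were 0.0374, 0.0659, 0.0669, 0.0679 and 0.0728 log2 units, where DES itself spanned 0.879. CLEC14A was at 3.89, 2.097 and 2.17 FPKM at 0 h, 48 h and 72 h, far below DES.

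Vimentin was the only one of the 3 most abundant genes that was higher than at 0 h at both later times. VIM (ENSSSCG00000011033, chromosome 10, 43516441 to 43526172) was at 4756, 4608 and 4633 FPKM at 0 h, at 5633, 5612 and 5401 at 48 h and at 5476, 5551 and 5221 at 72 h. All later libraries were above all 0 h libraries. The rise was 0.25 ± 0.06 at 48 h (limma adjusted p = 0.00418) and 0.21 ± 0.06 at 72 h (adjusted p = 0.00946), or 1.19 and 1.16 times. It was 0.11 and 0.16 at equal FPKM sums, where the median gene moved to -0.10 and -0.06, so that relative to the median gene VIM was at 0.22 at both times. With no filter on low values the adjusted p was 0.0954 and 0.157.

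The ratio of DES to VIM within a library is not moved by a factor common to all its genes, though quantile normalization does move it. As deposited it was 0.304, 0.315 and 0.307 at 0 h, 0.166, 0.155 and 0.159 at 48 h and 0.181, 0.142 and 0.186 at 72 h. VIM made up 75.0% ± 0.374 of the summed FPKM of DES, VIM, NES, KRT8 and KRT18 at 0 h, 84.9% ± 0.440 at 48 h and 84.7% ± 1.88 at 72 h.

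Nestin is a filament protein of progenitor cells, and its mitotic phosphorylation goes with the disassembly of vimentin. NES (ENSSSCG00000006474, chromosome 4, 93412660 to 93421899) was at 109, 114 and 115 FPKM at 0 h, 87.7, 88.8 and 69.5 at 48 h and 51.5, 39.9 and 55.4 at 72 h. The groups did not overlap, and each time was lower than the one before. NES fell by 0.46 ± 0.12 at 48 h (adjusted p = 0.00958) and by 0.74 ± 0.12 from 48 h to 72 h (adjusted p = 0.00181), with a 72 h change from 0 h of -1.196 ± 0.12 (adjusted p = 1.73e-05). The 48 h fall was -0.34 without 48 h replicate 3, its lowest library. Over the same times the ratio of NES to VIM went from 0.0241 ± 0.00109 to 0.0148 ± 0.00164 and 0.00907 ± 0.00174.

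Keratins were at the low end. KRT8 (ENSSSCG00000000252, chromosome 5, 18172423 to 18180277) was at 6.43, 5.36 and 6.16 FPKM at 0 h, 12.5, 11.6 and 11.4 at 48 h and 8.42, 8.36 and 10.1 at 72 h. All libraries of 48 h were above those of 72 h, and these above those of 0 h. KRT8 rose by 0.88 ± 0.09 at 48 h (adjusted p = 3.09e-05), where it was 1.98 times its 0 h level, and by 0.51 ± 0.09 at 72 h (adjusted p = 8.76e-04). From 48 h to 72 h it fell by 0.37 ± 0.09 (adjusted p = 0.0137, but 0.0519 without 72 h replicate 1).

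KRT18 (ENSSSCG00000000253, chromosome 5, 18217686 to 18221432), the partner of keratin 8, was at 0.34, 0.20 and 0.20 FPKM at 0 h, 0.59, 1.41 and 0.84 at 48 h and 0.68, 1.37 and 0.30 at 72 h. The 48 h libraries were above those of 0 h, and the 72 h libraries overlapped both. It reached 1 FPKM in too few libraries to be tested, and the ratio of KRT8 to KRT18 ranged from 18.9 to 30.8 at 0 h, from 8.21 to 21.3 at 48 h and from 6.10 to 33.6 at 72 h.

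The defining markers of epithelia were at or near 0. EPCAM and CDH1, the adhesion molecules of epithelial cells, were listed at 0 in the 0 h libraries and had means of 0.0533 and 0.020 FPKM at 48 h and 0.0267 and 0.0233 at 72 h, and GRHL2, an epithelial transcription factor, was listed at 0 in all 9. The 6 matched markers of 8 summed to 2.66 to 2.88 FPKM at 0 h, 1.41 to 2.18 at 48 h and 1.97 to 1.99 at 72 h. Most of the sum was ESRP1, a splicing regulator and the only one tested, which fell from 2.29 ± 0.104 to 1.197 ± 0.369 FPKM at 48 h (-0.60, adjusted p = 0.00436). CLDN4, a tight junction protein, was at 0.26 ± 0.0656, 0.45 ± 0.255 and 0.54 ± 0.227 FPKM at 0 h, 48 h and 72 h and was too low to be tested. The part of epithelial cells in the KRT8 values was not tested. Of 6 mesothelial markers 2 were matched, and they summed to 2.04 to 3.16, 6.40 to 9.40 and 6.62 to 8.40 FPKM at 0 h, 48 h and 72 h. KRT7, the one of them that was tested, rose from 1.77 ± 0.496 to 6.86 ± 1.60 FPKM at 48 h (log2 change of 1.504 ± 0.17, adjusted p = 5.86e-05) and was at 6.69 ± 0.992 at 72 h. The part of mesothelial cells in the keratin values was not tested.

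Of 39 other intermediate filament genes 27 were matched, 15 of these were listed at 0 in all 9 libraries and 7 were tested. At 48 h 4 of the 7 rose and 0 fell, and 0 fell at an unadjusted p below 0.05 too. At 72 h 3 rose and 1, BFSP1, fell (-0.34 ± 0.10, adjusted p = 0.0196, but 0.0546 without 0 h replicate 1). Among all tested genes 27.6% rose and 22.4% fell at 48 h, and 23.0% rose and 22.5% fell at 72 h. The count of 48 h rises in the list was 2 at equal FPKM sums and after rescaling to protein-coding genes. It was also 2 with a filter at a mean FPKM of 5 and without 0 h replicate 1. PRPH, the gene of peripherin, a filament protein of peripheral neurons, rose from 0.20 ± 0.0854 FPKM at 0 h to 1.49 ± 0.460 at 48 h (1.04 ± 0.19, adjusted p = 0.00145) and 4.42 ± 1.58 at 72 h (2.14 ± 0.19, adjusted p = 7.19e-06). Among markers of neural cells, ELAVL3 was listed at 0 in all libraries and SOX10 had means below 0.2 FPKM at each time. TUBB3, a neuronal tubulin, rose from 66.6 ± 4.27 to 150.0 ± 14.4 FPKM at 48 h and 138 ± 10.9 at 72 h. The part of neural cells in the PRPH values was not tested.

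**Figure D3:**
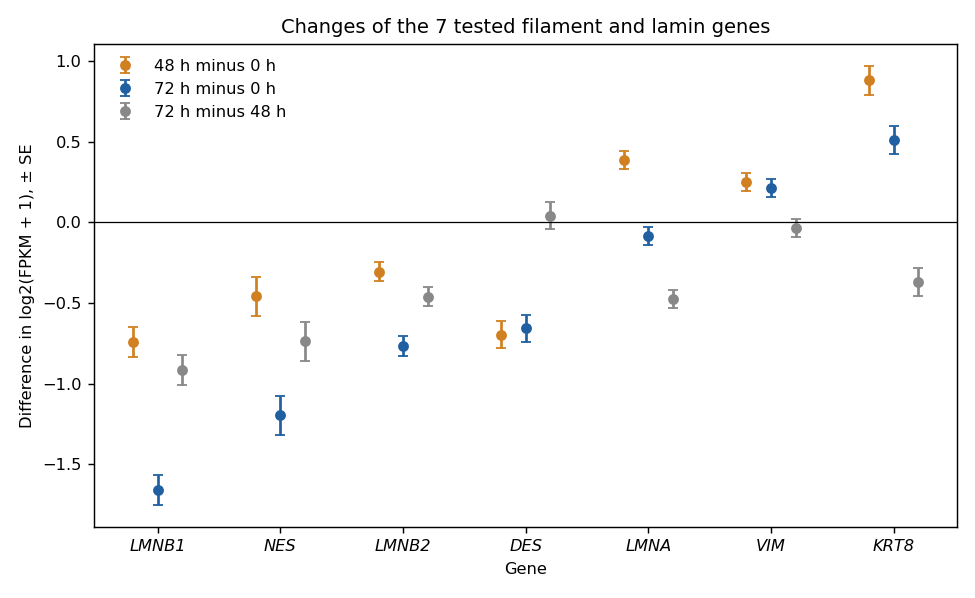
Differences in log2(FPKM + 1) between times, with standard errors from limma, for the 7 tested filament and lamin genes; DES against 0 h is a description. LMNB1, NES and LMNB2 lie below 0 in all 3 comparisons, LMNA is above 0 at 48 h only, and VIM and KRT8 are above 0 at both later times.

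The lamins did not move together. LMNA (ENSSSCG00000006496, chromosome 4, 93899019 to 93927255), which encodes lamins A and C, was at 700.2, 684 and 708 FPKM at 0 h, 942, 932 and 863 at 48 h and 684, 646 and 640.0 at 72 h. The 48 h libraries were above all others, and 72 h overlapped 0 h. LMNA rose by 0.39 ± 0.06 at 48 h (limma adjusted p = 3.08e-04), was at -0.09 ± 0.06 at 72 h against 0 h (adjusted p = 0.230) and fell by 0.47 ± 0.06 between 48 h and 72 h (adjusted p = 2.62e-04). Both comparisons with 0 h depended on the scaling. Under quantile normalization the 48 h difference was 0.03 (adjusted p = 0.628) and the 72 h difference -0.33 (adjusted p = 1.48e-04), and at equal FPKM sums the 72 h difference was -0.14 (adjusted p = 0.0276).

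LMNB1 (ENSSSCG00000014248, chromosome 2, 129807228 to 129862211) encodes lamin B1, which stays anchored to the inner nuclear membrane by a lipid tail. It was at 68.0, 67.3 and 72.85 FPKM at 0 h, 37.7, 43.6 and 42.2 at 48 h and 18.5, 24.4 and 21.4 at 72 h. No libraries overlapped between times. LMNB1 fell by 0.74 ± 0.09 at 48 h (adjusted p = 1.30e-04) and by 1.66 ± 0.09 at 72 h (adjusted p = 1.87e-07), where it was at 0.309 times its 0 h level. The fall from 48 h to 72 h was -0.92 ± 0.09 (adjusted p = 9.92e-05).

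LMNB2 (ENSSSCG00000026784, chromosome 2, 76125932 to 76146564), the gene of the other B-type lamin, was lower throughout, at 13.9, 14.3 and 13.4 FPKM at 0 h, 10.8, 11.3 and 10.9 at 48 h and 7.90, 7.56 and 7.76 at 72 h. Again no libraries overlapped between times. It fell by 0.31 ± 0.06 at 48 h (adjusted p = 0.00186), by 0.77 ± 0.06 at 72 h (adjusted p = 2.38e-06) and by 0.46 ± 0.06 from 48 h to 72 h (adjusted p = 4.48e-04).

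Ratios between the lamins within a library are not moved by a factor common to all its genes, such as equal FPKM sums, though quantile normalization does move them. LMNB1 stood at 0.0971, 0.0985 and 0.103 of LMNA at 0 h, at 0.0400, 0.0468 and 0.0489 at 48 h and at 0.0271, 0.0378 and 0.0334 at 72 h. The groups did not overlap, but an exact two-sided permutation test of 3 against 3 libraries cannot go below p = 0.1, the value it gave in each of the 3 comparisons (0.155 after Benjamini-Hochberg adjustment over the 17 ratio tests). LMNB2 stood at 0.0199 ± 0.00102 of LMNA at 0 h, 0.0121 ± 0.000591 at 48 h and 0.0118 ± 0.000299 at 72 h, with overlap between the later times (exact p = 0.6, adjusted 0.68). LMNB1 was 5.01 ± 0.383 times LMNB2 at 0 h, 3.73 ± 0.216 at 48 h and 2.78 ± 0.444 at 72 h, again at exact p = 0.1 in each comparison (adjusted 0.155).

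**Figure D4:**
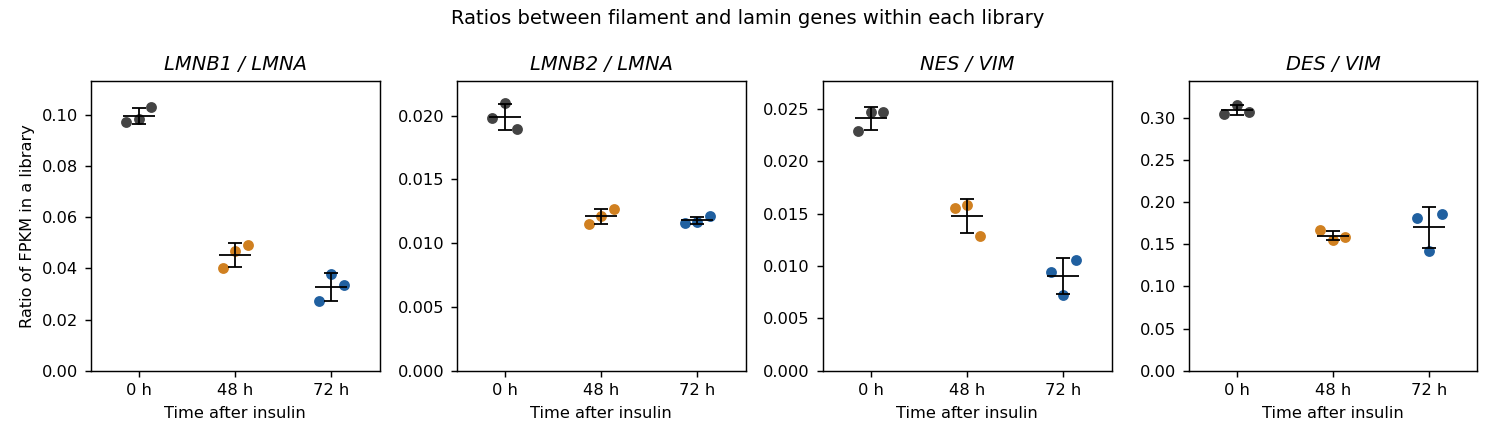
Ratios of FPKM between filament and lamin genes in each of the 9 libraries (linear axes from 0), with points for libraries, bars for means and error bars for the SD (n = 3). LMNB1 / LMNA and NES / VIM are lower at each later time, while LMNB2 / LMNA and DES / VIM are lower than at 0 h at both later times, which overlap.

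Counted together without DES, 3 of the 6 tested genes rose at 48 h (VIM, KRT8 and LMNA) and 3 fell (NES, LMNB1 and LMNB2), where 49.9% of all tested genes were called. At 72 h 2 rose and 3 fell, against 45.5% of all genes called. Between 48 h and 72 h 5 of the 7 genes, DES now included, were called lower and 0 higher, where 16.3% of all genes were called lower and 9.17% higher. For all genes that split was 1014 higher and 1800 lower as deposited and 1419 higher and 1136 lower at equal FPKM sums, and the 5 genes kept their calls there. At an unadjusted p below 0.05 the count of rises among the 7 was 0 too. By separation of the libraries alone, all 6 genes other than DES stood apart from 0 h at 48 h (3 higher and 3 lower, against 32.4% and 27.6% of all tested genes, 60.0% in all). At 72 h it was 2 higher and 3 lower (28.1% and 30.4% of all genes, 58.6% in all), and between 48 h and 72 h 5 of 7 were lower and 0 higher (23.9% and 14.9% of all genes, 38.9% in all). Called in either direction between 48 h and 72 h were 25.4% of all genes.

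Proteins of the nuclear envelope that bind lamins or link them to the cytoskeleton went in both directions at 48 h, while 12 of 18 were lower at 72 h. Of 21 genes 18 were tested, with 4 rising and 9 falling at 48 h (median -0.19), 0 rising and 12 falling at 72 h (median -0.29) and 0 rising and 7 falling from 48 h to 72 h. Of all tested genes 22.4%, 22.5% and 16.3% fell in these comparisons. At an unadjusted p below 0.05 1 gene rose in each of the 72 h comparisons, as it did by the adjusted p with library weights. By that p 1 rose too at 72 h without 0 h replicate 2 or 72 h replicate 3, and from 48 h to 72 h at equal FPKM sums and without 48 h replicate 3. TMPO, whose lamina-associated polypeptides bind lamins and chromatin, fell from 13.3 ± 0.750 to 9.39 ± 1.13 FPKM at 48 h and to 6.26 ± 0.115 at 72 h (-0.97 ± 0.09, adjusted p = 5.76e-06). SYNE2, the giant nesprin that reaches out to actin, fell from 2.69 ± 0.210 to 1.40 ± 0.235 FPKM at 48 h (-0.62 ± 0.10, adjusted p = 4.65e-04). EMD, the gene of emerin, a partner of lamin A, rose from 94.4 ± 1.65 to 132 ± 13.0 FPKM at 48 h (0.47 ± 0.08, adjusted p = 6.65e-04) and was at 103 ± 6.97 at 72 h (0.13, adjusted p = 0.205). EMD and LMNA were both highest at 48 h, as were the means of BANF1, LEMD2, NRM and TOR1A of the same list.

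Enzymes that finish the lipid-tailed lamins were listed with NARF, which is not such an enzyme. Of the 6 genes 5 were tested, and 2, ICMT and NARF, rose and 0 fell at 48 h and again at 72 h. None fell at an unadjusted p below 0.05 either, while 1 fell by the adjusted p at 72 h without 72 h replicate 3. Among all tested genes 27.6% rose and 22.4% fell at 48 h, and 23.0% rose and 22.5% fell at 72 h. NARF rose by 0.48 ± 0.08 at 48 h (adjusted p = 6.23e-04), and the enzyme genes FNTB and RCE1 were not called against 0 h. ICMT, which methylates the tail, rose from 222 ± 10.4 to 330.4 ± 36.5 FPKM at 48 h (0.57 ± 0.08, adjusted p = 2.66e-04). ZMPSTE24, the protease that matures lamin A, was at 21.6 ± 0.987, 20.6 ± 1.02 and 18.8 ± 2.72 FPKM at 0 h, 48 h and 72 h and was not called against 0 h (adjusted p = 0.609 and 0.113).

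Plakins and desmosome proteins, which tie filaments to junctions and to the other cytoskeletal systems, were tested for 8 of 12 genes. DSP, the gene of desmoplakin, was near 0, at 0.0967, 0.0667 and 0.0933 FPKM at 0 h, 48 h and 72 h. EVPL and PPL also had means below 1 FPKM at each time, and all 3 were too low to be tested. At 48 h 1 rose and 5 fell (median -0.43) and at 72 h 1 rose and 5 fell (median -0.26), with 3 falls without 0 h replicate 2 or without 72 h replicate 1 or 2. Among all tested genes 22.4% fell and 27.6% rose at 48 h, and 22.5% fell and 23.0% rose at 72 h. DSC2, a desmosomal cadherin, fell from 82.7 ± 1.95 to 49.96 ± 7.56 FPKM at 48 h (-0.73 ± 0.10, adjusted p = 2.11e-04), and DSG2, its partner, fell from 5.05 ± 0.292 to 3.34 ± 0.499 FPKM at 72 h (-0.48, adjusted p = 0.0131, but 0.0556 without 72 h replicate 1). JUP, the gene of plakoglobin, was the exception and rose from 62.7 ± 1.66 to 83.0 ± 3.16 FPKM at 48 h (0.40 ± 0.05, adjusted p = 2.02e-04).

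Kinases that phosphorylate vimentin, nestin, desmin or lamins were mostly lower too. All 8 were tested, and 7 fell and 0 rose at 48 h (0 at an unadjusted p below 0.05), while 6 fell and 1 rose at 72 h. Of all tested genes 22.4% fell and 27.6% rose at 48 h, and 22.5% fell and 23.0% rose at 72 h. CDK1, AURKB and PLK1 had the largest falls and also stand in the mitosis list below. The largest fall outside them at 72 h was -0.44, of ROCK2. CDK1, which starts mitosis and opens the lamina, fell from 45.4 ± 1.97 to 19.5 ± 0.999 FPKM at 48 h and to 9.03 ± 1.05 at 72 h (-2.21 ± 0.08, adjusted p = 1.79e-08). AURKB, which acts on vimentin and desmin in the cleavage furrow, fell from 23.0 ± 0.450 to 4.24 ± 1.24 FPKM at 72 h (-2.22 ± 0.14, adjusted p = 5.15e-07). PAK1 was the exception at 72 h, with a rise of 0.27 (adjusted p = 0.0116) that was lost without 0 h replicate 1 (0.0518).

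Genes of mitosis are given beside LMNB1 as a description, from a list written with earlier results of these data known. Of 21 listed genes 19 were tested, and 19 fell at 48 h, at 72 h and between 48 h and 72 h, with medians of -1.06, -1.99 and -0.97. The shares of all tested genes that fell were 22.4%, 22.5% and 16.3%. The summed level of the 19 genes was 817 to 870 FPKM at 0 h, 392 to 414 at 48 h and 167 to 212 at 72 h, and the part of cell division in the lamin B1 values was not tested. KIF11, the spindle motor, fell from 31.7 ± 1.01 to 10.2 ± 1.52 FPKM at 48 h (-1.55 ± 0.11, adjusted p = 3.17e-06) and to 5.03 ± 0.711 at 72 h.

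By the same measure of profiles, the 5 genes nearest to LMNB1 were UHRF1, STMN1, KIF20A, DDIAS and MCM10, at root mean square differences of 0.0737, 0.0853, 0.0937, 0.0973 and 0.0988 log2 units, where LMNB1 spanned 1.92. STMN1, the gene of the microtubule regulator stathmin, was at 348 ± 5.97 FPKM at 0 h, 215 ± 4.53 at 48 h and 116 ± 12.5 at 72 h. UHRF1, which helps to copy DNA methylation, was at 23.5 ± 1.15, 14.7 ± 1.28 and 6.77 ± 0.795 FPKM. DDIAS and MCM10 were low, at 5.82 and 7.68 FPKM at 0 h and 1.12 and 1.84 at 72 h.

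Inhibitors of cyclin-dependent kinases, some of which rise when cells stop dividing, were given with GLB1 as a list of 8 tested genes. At 48 h 2 rose and 4 fell and at 72 h 2 rose and 3 fell. Among all tested genes 27.6% rose and 22.4% fell at 48 h, and 23.0% rose and 22.5% fell at 72 h. GLB1, not such an inhibitor, was among the falls at both times (-0.47 and -0.30). The count of rises was 1 at 48 h under quantile normalization, and 1 at both times with a filter at a mean FPKM of 5. CDKN1A, the most abundant of the list, was at 105, 133 and 156 FPKM at 0 h, 48 h and 72 h. It rose by 0.33 at 48 h and 0.56 at 72 h (adjusted p = 0.00366 and 1.17e-04). CDKN1C rose from 1.65 ± 0.207 to 6.05 ± 0.505 FPKM at 48 h (1.41 ± 0.11, adjusted p = 4.41e-06), while CDKN2C fell from 15.3 ± 0.711 to 4.69 ± 0.930 FPKM at 72 h (-1.53 ± 0.11, adjusted p = 1.56e-06).

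**Figure D5:**
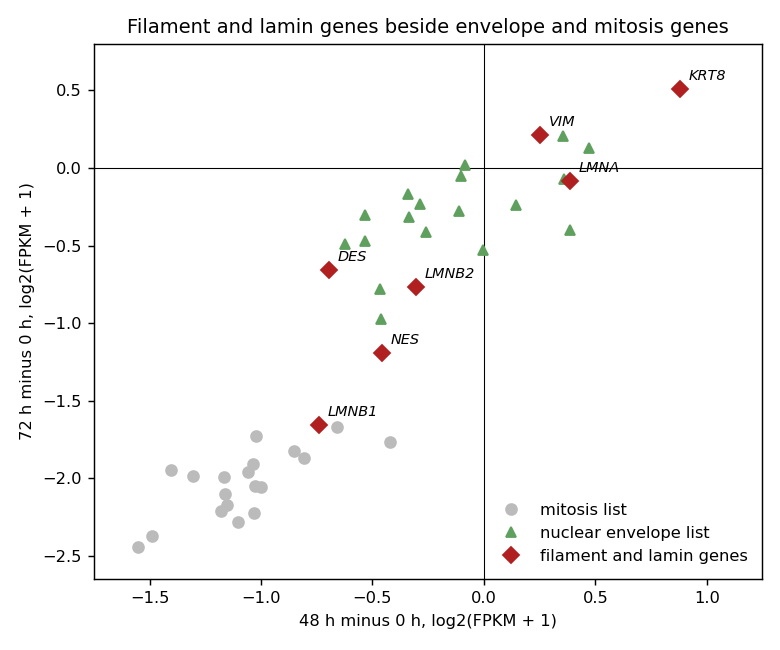
Log2(FPKM + 1) differences at 48 h (x axis) and 72 h (y axis) against the shared 0 h libraries for the 7 tested filament and lamin genes (diamonds), 18 nuclear envelope genes (triangles) and 19 mitosis genes (circles). LMNB1, at -0.74 and -1.66, lies just above the mitosis genes on the 72 h axis, and LMNA lies above 0 at 48 h.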

How the data were processed

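The members and the gene lists were chosen with earlier results of these data known. The deposited values are FPKM made by the authors, 1 value per gene and library with 2 decimals, per the file headers. The build Sscrofa11.1 and the tools RSEM 1.2.28, featureCounts 2.0.2, DESeq2 and HISAT2 2.1.0 stand in the submitters' processing notes without roles, and the sources used here do not say whether counting used the strand. Ribosomal RNA had been removed, per the labels' protocols. Gene symbols were paired with 14864 of 30477 IDs, and coordinates are those of RefSeq genes of Sscrofa11.1 with the same symbol.

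The filter kept genes that reached an FPKM of 1 in 3 or more libraries, and these entered limma 3.58.1 (R 4.3.3) as log2(FPKM + 1), a scale that understates changes of low genes. The 9 libraries shared 1 fit with group as the only term, with a trended prior variance and two-sided contrasts, tested on simulated data first. Named list genes were the called gene with the largest change per list and comparison with 0 h, up to 1 called against the majority, and the most abundant marker; other list genes were chosen after their values were seen. Alternatives varied scaling, pseudocount (0.1 and 0.5), filter, prior, library weights, replicate block and each library. FPKM hold no counts. Steps between low values agreed for only 5 to 8 genes a library, so relative depth was not used, and the median standard error of 0.088 sets the precision. Some genes of the neural marker list are not reported here.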

Additional observations from a re-analysis of the deposited data

Results flagged for a closer look

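For 5 genes the change from 0 h at 72 h differed from that at 48 h by the test of the difference itself, which is the comparison of 72 h with 48 h since both share the 0 h libraries. The change at 72 h minus that at 48 h was -0.92 for LMNB1, -0.74 for NES, -0.47 for LMNA, -0.46 for LMNB2 and -0.37 for KRT8 on the log2 scale. For LMNB1, NES and LMNB2 the later change extended the earlier fall, whereas for KRT8 and LMNA it took back part or all of a rise. No such difference was called for DES (0.04) or VIM (-0.04).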

How the results depend on the processing

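Over all results and alternatives, 3307 values stayed the same. For tested changes this means the same direction and side of the threshold. For counts, ratios and the DES changes from 0 h it means staying within an allowed spread. By that rule 3680 genes called lower at 48 h at equal FPKM sums, against 2476 as deposited, counted as the same. Another 146 values moved by more than the allowed spread, most of them counts within the short gene lists. Of the rest 59 lost and 2 gained a call, and 5 changed sign, all 5 in uncalled differences of DES and VIM between 48 h and 72 h. Beyond the values given above for LMNA (0.029 at 48 h and -0.33 at 72 h under quantile normalization, -0.14 at 72 h at equal FPKM sums), the changes of VIM of 0.25 and 0.21 were no longer called with no filter on low values, which left 1 gene of the family, KRT8, called higher at 72 h. The uncalled VIM difference between 48 h and 72 h turned from -0.04 to 0.046 at equal FPKM sums, 0.041 after rescaling to protein-coding genes and 0.088 under quantile normalization. Leaving out 1 library at a time, the log2 difference was -0.019 to 0.15 for DES and -0.45 to -0.33 for KRT8 in that comparison, and the genes called numbered 589 to 1497 higher and 1138 to 2196 lower, with 589 and 1138 without 48 h replicate 2 and with 624 and 651 higher without 72 h replicate 1 and 3. Over all genes 1960 were called higher at 48 h at equal FPKM sums. Between 48 h and 72 h 1602 were called higher with library weights, and 1136 and 1164 lower at equal FPKM sums and after rescaling to protein-coding genes. With 1 added to each FPKM, the mean ratio of LMNB2 to LMNA was 0.0213, 0.0132 and 0.0133 at 0 h, 48 h and 72 h, that of KRT8 to KRT18 was 5.60 at 0 h and 6.82 at 48 h, and that of LMNB1 to LMNB2 was 3.51 at 48 h.

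The labels give no pairing, and replicate numbers were not used to pair the libraries. The correlation of deviations was -0.07 to 0.19 between same-numbered libraries and -0.18 to 0.17 between the others. These ranges overlap, so they cannot decide whether the numbers mark pairs. With the replicate number as a block, LMNB1 was at -0.74 at 48 h and -1.66 at 72 h and no call of a filament or lamin gene changed. The genes called at 48 h were then 3081 higher and 2551 lower. FPKM carry no counts, so the depth behind KRT18, below 1.5 FPKM in every library, cannot be given.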
